A study of Mus musculus with 9 samples.

Results

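The Wnt ligands, their receptors and the secreted proteins that regulate them were examined in mouse myoblasts in culture, which are the proliferating precursors of muscle fibres. A gene belonged to this group if it had a probe set with 1 gene symbol and was a Wnt ligand, a Frizzled receptor (Fzd), a secreted Frizzled-related protein (Sfrp), an R-spondin (Rspo) or a Dickkopf protein (Dkk). Lrp5, Lrp6, Lef1, Tcf7, Tcf7l1, Tcf7l2 and Axin2 were added by name. The rule found 47 of 19661 genes. Of the 7 genes added by name, Tcf7 had no probe set with 1 symbol and was not analysed here. Where a gene had several probe sets, the one with the highest mean over all arrays stood for it, which among these genes mattered only for Wnt4.

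All cells were myoblasts from skeletal muscle of Balb/c background, kept in F10 medium that held 20% serum (FBS) and bFGF, a growth factor that keeps myoblasts dividing, at 4 ng/ml. There were 3 groups of 3 arrays each: cells with an empty vector, labelled CTAP Control, and cells that overexpressed either Pax3 or Pax7, related transcription factors with a paired domain and a homeodomain. Total RNA was hybridised to Affymetrix arrays, and values are log2 intensities per probe set, so a difference of 1 is a 2-fold difference. The sources used here give neither the promoter of the vectors nor whether the cells were clones or pools. The labels do not say that the 3 samples of a group were separate cultures, so the p-values rest on the spread between samples that may be technical repeats.

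Wnt proteins are secreted lipid-modified signals that bind Frizzled receptors on the cell surface. In the branch that runs through beta-catenin, Lrp5 or Lrp6 joins the Frizzled receptor, beta-catenin escapes degradation and TCF and LEF factors in the nucleus turn on targets such as Axin2. Other branches act on cell polarity, cell shape and calcium. R-spondins strengthen Wnt signals by binding Lgr receptors and removing the ubiquitin ligases Rnf43 and Znrf3, which would otherwise clear Frizzled from the membrane. Sfrp proteins bind Wnts outside the cell, and most Dkk proteins block Lrp5 and Lrp6. In muscle, Wnt signals act in the embryonic somite and in satellite cells, which repair muscle in the adult.

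Each overexpressed factor was highest on the arrays labelled with it. Pax3 stood at log2 intensities of 5.91, 5.78 and 5.80 on the control arrays, 11.10, 11.01 and 11.04 on the Pax3 arrays and 6.80, 6.87 and 6.80 on the Pax7 arrays. Pax7 stood at 10.47, 10.45 and 10.60 on the control arrays, 8.15, 8.26 and 8.14 on the Pax3 arrays and 12.25, 12.31 and 12.27 on the Pax7 arrays. Myod1, the myogenic master regulator, stood at group means of 12.2 to 12.6. Of 9 myoblast markers, 6 were lower and 1 higher in Pax3 arrays, and 6 were lower and 2 higher in Pax7 arrays, Pax7 itself counted among them. The receptor Fgfr4 fell by 1.46 and 2.28, the filament protein Des by 0.52 and 1.33 and the adhesion protein Ncam1 by 0.53 and 1.13, while the myogenic factor Myf5 rose by 1.97 and 2.02. Xist, the RNA that coats the silenced X chromosome in female cells, was at 4.62 to 4.85 on control arrays and 11.70 to 12.04 on the other arrays, while the Y-linked Uty was at 9.17 to 9.36 and 3.71 to 3.91. Each comparison with control therefore also set arrays with Y-linked transcripts against arrays without them, and the factor and this difference cannot be told apart. Of the 47 Wnt genes, 0 lie on the X or Y chromosome, but some of the other pathway genes described below, Ndp among them, lie on the X.

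Other differences moved with the same groups. For comparison, 39.6% of all genes passed between Pax3 and control arrays (19.8% higher, 19.7% lower) and 43.2% between Pax7 and control arrays (21.6% higher, 21.5% lower). All 8 markers of differentiated muscle, the contractile gene Myh1 and the differentiation factor Myog among them, fell in both comparisons with control, and their mean log2 level was 11.04 to 11.24 on control, 9.35 to 9.37 on Pax3 and 8.33 to 8.54 on Pax7 arrays. Among 7 epithelial markers 4 rose in Pax3 and 5 in Pax7 arrays, with a mean level of 5.69 to 5.81 on control, 6.52 to 6.61 on Pax3 and 6.95 to 7.02 on Pax7 arrays. Dsp rose by 4.57 and 4.83 and Krt18 by 0.66 and 2.44, and the other risers by at most 0.71. Cdh1 (means of 5.35 to 5.38) and Krt5 (5.46 to 5.53) passed in no comparison and lay below the median of all probe sets on every array. Of 8 macrophage markers, Cd68 and Laptm5 rose in both comparisons, while Ptprc (4.7 in every group), Csf1r (4.9 to 5.0) and Adgre1 (3.8 to 3.9) did not pass. The fibroblast list gave 1 rise and 1 fall among 10 genes in Pax3 arrays and 2 rises and 1 fall in Pax7 arrays. Of 6 adipocyte markers, 3 rose in Pax3 and 4 in Pax7 arrays and none fell. Pparg was higher by 1.12 and 1.33, Lpl by 0.69 and 0.41, and Cd36 by 1.19 in Pax3 arrays but not in Pax7 arrays (-0.095). Adipoq and Plin1 rose in Pax7 arrays alone, by 0.21 and 0.24, and Fabp4 (means of 4.47 to 4.56) passed in no comparison. Cd36, Adipoq and Fabp4 lay below the median of all probe sets on every array. The part of these shifts in the Wnt results was not tested. In RNA from whole cultures, fewer cells of a type and less RNA per cell cannot be told apart.

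Between Pax3 and control arrays the largest changes were the rise of Wnt5a and the falls of Sfrp2 and Rspo3. Of the 47 Wnt genes, 19 passed the threshold between Pax3 and control arrays, 5 higher and 14 lower (limma adjusted p under 0.05 over all genes tested). That is 40.4%, against 39.6% of all 19661 genes, which split evenly into 19.8% higher and 19.7% lower. The median log2 fold change was 0.02, as it was over all genes. In 7 of the 47 genes the change was 1 log2 unit or more, against 4.8% of all genes. The arrays did not overlap in 20 of the 47 genes, beside 45.1% of all genes.

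With Pax7, 21 of the 47 genes passed against control, 9 higher and 12 lower. This 44.7% stood beside 43.2% of all genes, of which 21.6% were higher and 21.5% lower. The median log2 fold change was 0.04, beside 0.03 over all genes. Here 8 genes changed by at least 1 log2 unit, against 6.58% of all genes, and the arrays did not overlap in 28, beside 55.5% of all genes. The comparisons with Pax3 and with Pax7 share the control arrays, so their values are given side by side and are not independent. Between Pax7 and Pax3 arrays, 13 of the 47 genes passed (27.7%, against 16.9% of all genes), 6 higher and 7 lower in Pax7 arrays. In that comparison 8.33% of all genes were higher and 8.54% lower, and the arrays did not overlap in 16 of the 47 genes, beside 29.4% of all genes. Differences of 1 log2 unit or more were found in 2 of the 47, beside 0.895% of all genes.

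Many of these genes were dim. On every array, 21 of the 47 genes, 11 of the 19 ligands among them, lay below that array's median over all probe sets (6.397 to 6.477), and 20 of the 47 were in the upper part of all genes when the lower 50% by mean were set aside. In 23 genes no comparison passed. Of the 21 dim genes, 5 passed in at least 1 comparison. The shares of all genes, and of all dim genes, that passed in at least 1 comparison were not computed. These counts therefore do not show a difference from other genes. The files give no call of presence, so a dim probe set shows neither that a transcript was present nor that it was absent.

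**Figure D1:**
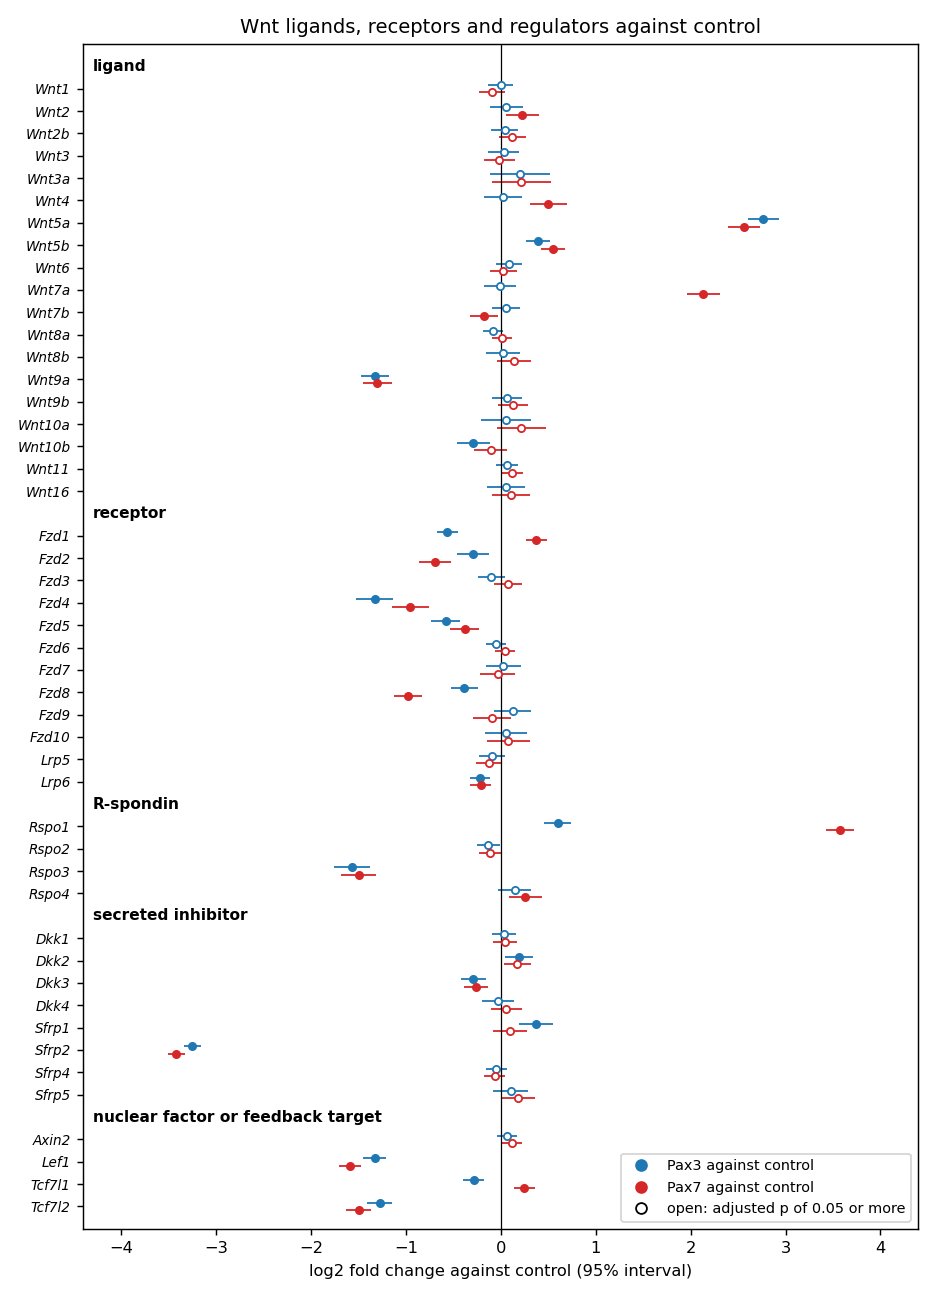
Log2 fold change against control of the 47 Wnt genes (x axis, with 95% intervals) in Pax3 (blue) and Pax7 arrays (red), grouped by role on the y axis; filled points passed the threshold and open points did not. Most points lie near 0, Sfrp2 lies below -3 in both comparisons, and Rspo1 and Wnt7a show the widest gaps between blue and red.

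The promoters of 4 genes are shown for these reasons: Sfrp2 fell furthest of the 47 genes, Rspo1 and Wnt7a separated the Pax7 from the Pax3 arrays, and Lef1 is a DNA-binding factor of the pathway that fell with both. Wnt5a and Rspo3 had no window in the table used. Each line holds the 250 bases before a RefSeq start site on the GRCm38.p6 build, 5′ to 3′ on the gene's strand. For Lef1 it is the window, 1 of 4, that held the TCF and LEF letters. Capitals mark matches on either strand of TAAT, the core that homeodomains such as those of Pax3 and Pax7 bind, of GTCAC, a core of paired-domain sites, and of TCAAAG, the core bound by TCF and LEF factors.
Sfrp2, chr3:83766071-83766320, plus strand: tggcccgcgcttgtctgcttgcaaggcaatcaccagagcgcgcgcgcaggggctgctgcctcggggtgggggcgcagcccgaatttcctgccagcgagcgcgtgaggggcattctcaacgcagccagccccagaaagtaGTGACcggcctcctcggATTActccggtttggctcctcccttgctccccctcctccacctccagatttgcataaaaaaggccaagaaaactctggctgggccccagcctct
Rspo1, chr4:124986180-124986429, plus strand: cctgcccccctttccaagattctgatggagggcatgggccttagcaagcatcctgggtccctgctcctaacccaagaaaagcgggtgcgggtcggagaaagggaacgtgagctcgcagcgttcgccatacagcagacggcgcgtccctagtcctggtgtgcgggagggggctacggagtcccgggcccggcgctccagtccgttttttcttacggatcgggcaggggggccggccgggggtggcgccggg
Wnt7a, chr6:91411354-91411603, minus strand: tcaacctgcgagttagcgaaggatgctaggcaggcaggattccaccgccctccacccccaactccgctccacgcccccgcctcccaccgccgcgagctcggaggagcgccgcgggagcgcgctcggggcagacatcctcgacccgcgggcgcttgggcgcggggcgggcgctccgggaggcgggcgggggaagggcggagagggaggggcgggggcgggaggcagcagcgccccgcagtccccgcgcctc
Lef1, chr3:131156044-131156293, plus strand: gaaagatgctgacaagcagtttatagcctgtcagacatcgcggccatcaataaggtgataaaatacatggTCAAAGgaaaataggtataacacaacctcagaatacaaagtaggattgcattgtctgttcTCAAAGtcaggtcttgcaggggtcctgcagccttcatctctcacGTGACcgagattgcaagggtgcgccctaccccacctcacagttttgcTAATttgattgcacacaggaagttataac

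The Sfrp2 window held 1 TAAT and 1 GTCAC match and no TCAAAG, and the Lef1 window held 1 TAAT, 1 GTCAC and 2 TCAAAG matches. That Lef1 window was picked for its TCAAAG matches, and the other Lef1 windows held 0 matches of TAAT, GTCAC or TCAAAG. The Rspo1 and Wnt7a windows held 0 matches of these letters, and their share of G and C was 66.8% and 77.6%, against 63.6% for Sfrp2 and 44.8% for Lef1. RefSeq windows were at hand for 31 of the 47 genes, 38 windows in all. TAAT was found in 11 of the 38 (28.9%, against 54.9% of all 32851 windows), GTCAC in 11 (28.9%, against 39.8%) and TCAAAG in 5 (13.2%, against 13.8%). The E-box CANNTG, the site of myogenic bHLH factors, was found in 22 (57.9%, against 66.2%). An inverted pair of TAAT cores with 2 bases between them, which fits a pair of homeodomains, was found in 0 of the 38 and in 0.384% of all windows. Both strands were searched. A match of so few letters describes the sequence only, and several windows can belong to 1 gene.

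Among the ligands, Wnt5a changed most. Wnt5a, which mostly signals outside the beta-catenin branch, stood at 5.50, 5.36 and 5.36 on the control arrays, 8.25, 8.28 and 7.98 on the Pax3 arrays and 7.96, 7.999 and 7.95 on the Pax7 arrays. All 6 arrays with a Pax factor lay above all control arrays, while the Pax3 and Pax7 arrays overlapped. Against control, Wnt5a was up 6.80-fold in Pax3 arrays (log2 fold change 2.77 ± 0.0751, SE, limma adjusted p = 3.4e-10) and 5.90-fold in Pax7 arrays (2.56 ± 0.0751, adjusted p = 3.57e-10). Its level did not pass between Pax7 and Pax3 arrays (-0.20, 95% interval -0.37 to -0.04, adjusted p = 0.0997), but it did without Pax3 replicate 3 (-0.30, adjusted p = 0.00286). Its close relative Wnt5b rose by 0.39 ± 0.0577 in Pax3 and 0.55 ± 0.0577 in Pax7 arrays (SE, limma adjusted p = 0.000225 and 1.31e-05). The deposited value of Wnt5b, 7.02 after rounding, was identical on all 3 Pax3 arrays, so its SD there was 0.

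Wnt7a separated the factors. Wnt7a, a ligand known to act on satellite cells through the receptor Fzd7, stood at 4.94, 5.13 and 5.14 on the control arrays and 5.05, 4.94 and 5.20 on the Pax3 arrays. On the Pax7 arrays it stood at 7.17, 7.29 and 7.15, above all 6 other arrays, which overlapped among themselves. Pax7 arrays exceeded Pax3 arrays 4.42-fold (log2 difference 2.14 ± 0.0765, SE, limma adjusted p = 2.71e-08) and control arrays 4.39-fold (adjusted p = 1.75e-09). The control and Pax3 levels lay below every array's median, so these folds are between measured values and background may make them smaller than the change in RNA. The same holds for the control levels of Wnt5a, Rnf43, Prickle2 and Dsp and for the Pax3 and Pax7 levels of Rspo3 and Ndp. The control levels of Rspo1 (6.38 to 6.61) lay close to the array medians (6.397 to 6.477). The difference between Pax3 and control arrays was -0.01, with a 95% interval of -0.18 to 0.16. Fzd7 itself stood at means of 9.46 ± 0.105 on control arrays, 9.48 ± 0.178 with Pax3 and 9.43 ± 0.0391 with Pax7 (SD, n = 3) and passed in no comparison (limma adjusted p from 0.738 to 0.856). Reck and Adgra2 form the co-receptor of Wnt7 ligands in the vessels of the brain. These 2 genes were in the list of other receptors and were named here after their values were seen. Adgra2 was higher than in control by 1.30 ± 0.0388 in Pax3 and 0.58 ± 0.0388 in Pax7 arrays (SE, limma adjusted p = 6.97e-10 and 2.98e-07), while Reck did not pass (-0.04 and -0.06).

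Wnt9a fell with both factors. It stood at 8.79, 8.92 and 8.96 on the control arrays, 7.60, 7.41 and 7.67 on the Pax3 arrays and 7.56, 7.599 and 7.599 on the Pax7 arrays. Both groups lay below all control arrays and overlapped each other. The fall was 2.51-fold in Pax3 (-1.33 ± 0.0685, SE, limma adjusted p = 4.97e-08) and 2.47-fold in Pax7 arrays (-1.30 ± 0.0685, adjusted p = 3.96e-08), and the difference between them was 0.02 (95% interval -0.13 to 0.18). Wnt3a, the next gene on chromosome 11, did not pass in either comparison with control (0.20 and 0.21, limma adjusted p = 0.321 and 0.26).

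The other ligands moved by at most 0.50. Wnt4 was higher in Pax7 arrays, at 7.198, 7.23 and 7.44, than in control arrays, at 6.82, 6.85 and 6.69, or Pax3 arrays, at 6.69, 6.75 and 6.998. The Pax7 arrays lay above all the others, by 0.50 ± 0.0894 against control and 0.48 ± 0.0894 against Pax3 (SE, limma adjusted p = 0.000779 and 0.00355). The other probe set of Wnt4 differed by 0.14 between Pax7 and control means. Wnt10b fell with Pax3 (-0.29 against control, limma adjusted p = 0.0116, and 0.0524 without Pax3 replicate 1). Wnt2 was higher in Pax7 than in control arrays (0.23, limma adjusted p = 0.0395). That call was lost without control replicate 2 or 3, Pax3 replicate 2 or Pax7 replicate 1 or 2, with adjusted p up to 0.159. Wnt7b was lower in Pax7 arrays than in control (-0.18, limma adjusted p = 0.0491) and Pax3 arrays (-0.23, adjusted p = 0.0341). The Wnt7b call against control was lost without any 1 of the control arrays, Pax3 replicate 1 or Pax7 replicate 1 or 2 (adjusted p up to 0.175), and the call against Pax3 without Pax3 or Pax7 replicate 1 or 2 (up to 0.135). Wnt1, Wnt2b, Wnt3, Wnt3a, Wnt6, Wnt8a, Wnt8b, Wnt9b, Wnt10a, Wnt11 and Wnt16 passed in no comparison.

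**Figure D2:**
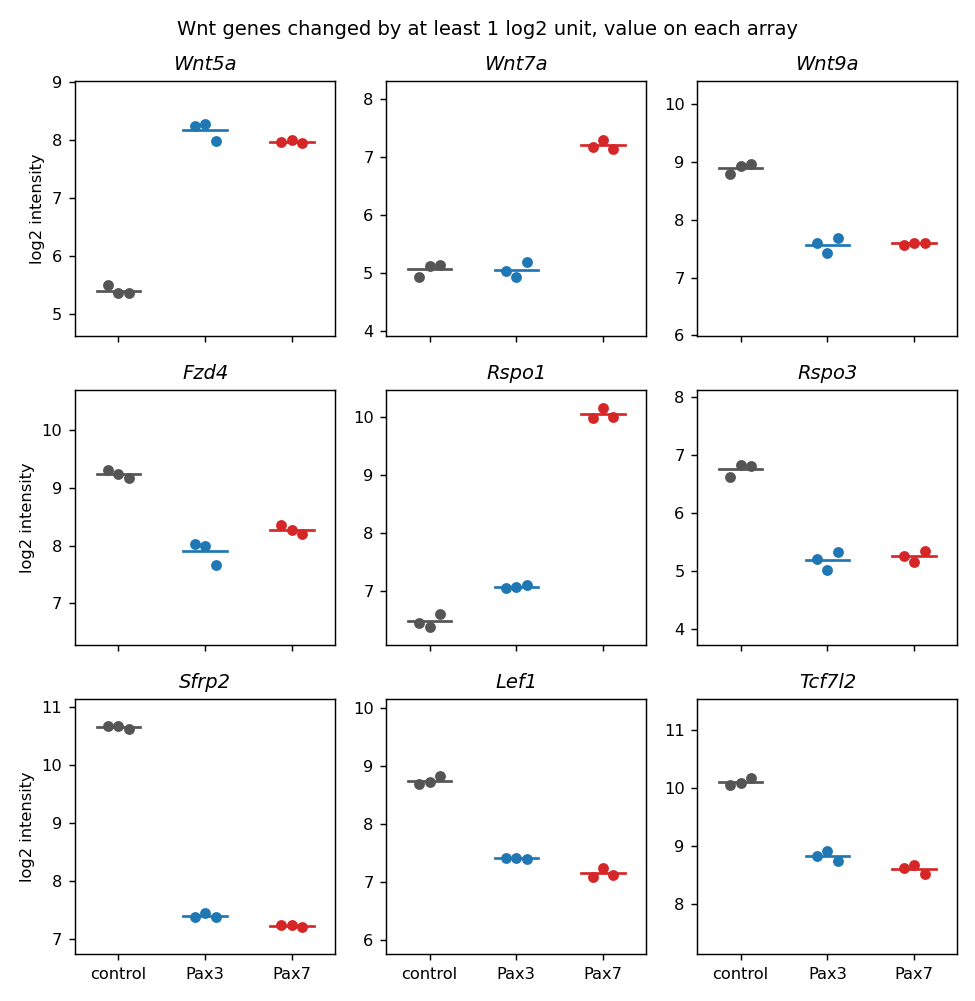
Log2 intensity (y axis) of the 9 Wnt genes that changed by at least 1 log2 unit in any comparison, on each of the 3 control, Pax3 and Pax7 arrays (points) with the group mean (line). Each y axis spans the same number of log2 units; Wnt7a is high on the Pax7 arrays alone, Rspo1 rises in steps from 6.47 over 7.07 to 10.04, and the other genes separate the control arrays from both Pax groups.

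The R-spondins moved in opposite directions. Rspo1 stood at 6.43, 6.38 and 6.61 on the control arrays, 7.05, 7.07 and 7.10 on the Pax3 arrays and 9.99, 10.15 and 10.0003 on the Pax7 arrays. The 3 groups did not overlap and rose in that order. Rspo1 rose 11.9-fold from control to Pax7 arrays (3.57 ± 0.0651, SE, limma adjusted p = 1.23e-11), 1.51-fold from control to Pax3 arrays (0.60 ± 0.0651, adjusted p = 2.07e-05) and was 7.85-fold higher with Pax7 than with Pax3 (2.97 ± 0.0651, adjusted p = 6.55e-10).

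Rspo3 fell from 6.62, 6.81 and 6.81 on the control arrays to 5.20, 5.02 and 5.33 on the Pax3 arrays and 5.26, 5.15 and 5.34 on the Pax7 arrays. Both Pax groups lay below all control arrays and overlapped each other. The falls were 2.96-fold (-1.57 ± 0.0841, SE, limma adjusted p = 6.79e-08) and 2.83-fold (-1.50 ± 0.0841, adjusted p = 6.87e-08), and the difference between the factors was 0.07 (95% interval -0.12 to 0.26). Rspo4 was dim and higher in Pax7 than in control arrays (0.26, limma adjusted p = 0.0219), a call lost without control replicate 1 or 2 or Pax7 replicate 3 (adjusted p up to 0.0949). Rspo2 was dim and passed in no comparison.

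The partners of the R-spondins changed as well. Lgr4, a receptor of R-spondins, stood at 10.62, 10.65 and 10.32 on the control arrays, 8.21, 8.31 and 7.94 on the Pax3 arrays and 7.9998, 7.89 and 7.88 on the Pax7 arrays. It fell 5.20-fold in Pax3 (-2.38 ± 0.104, SE, limma adjusted p = 1.29e-08) and 6.09-fold in Pax7 arrays (-2.61 ± 0.104, adjusted p = 3.97e-09). Lgr6, its relative, fell by 1.75 on the log2 scale in Pax3 arrays and by 1.27 in Pax7 arrays, and was higher in Pax7 than in Pax3 arrays by 0.47 (limma adjusted p = 4.25e-05). Lgr5 was dim and passed in no comparison. Rnf43, the ubiquitin ligase that R-spondins remove, stood at 5.80, 5.45 and 5.65 on the control arrays, 6.53 on all 3 Pax3 arrays and 7.51, 7.52 and 7.56 on the Pax7 arrays. It rose 1.87-fold in Pax3 arrays (0.90 ± 0.0733, SE, limma adjusted p = 1.99e-06) and 3.72-fold in Pax7 arrays (1.89 ± 0.0733, adjusted p = 3.22e-09). Znrf3, the related ligase, passed in no comparison. Rspo1 and Rnf43 stepped upward from control over Pax3 to Pax7 arrays, while Rspo3, Lgr4 and Lgr6 were lower than control with either factor. Lgr5, Lgr6 and Znrf3 were named here after their values were seen, except that the naming rule held Lgr6 in the Pax3 comparison.

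Of 12 Frizzled and Lrp genes, 6 fell and 0 rose in Pax3 arrays, where 19.7% of all genes were lower and 19.8% higher. In Pax7 arrays 5 fell and 1 rose, where 21.5% of all genes were lower and 21.6% higher, with median log2 fold changes of -0.16 and -0.11. Fzd4, a receptor of Wnts and of norrin, stood at 9.30, 9.23 and 9.16 on the control arrays, 8.02, 7.999 and 7.67 on the Pax3 arrays and 8.35, 8.27 and 8.19 on the Pax7 arrays. The 3 groups did not overlap, and the Pax3 arrays were lowest. It fell 2.51-fold in Pax3 (-1.33 ± 0.0878, SE, limma adjusted p = 3.72e-07) and 1.94-fold in Pax7 arrays (-0.95 ± 0.0878, adjusted p = 4.39e-06). Between the factors it differed by 0.37 (limma adjusted p = 0.0131, and 0.0594 without Pax7 replicate 1). Ndp, which encodes norrin and lies on the X chromosome, fell by 1.71 on the log2 scale in Pax3 and by 1.94 in Pax7 arrays (limma adjusted p = 6.78e-08 and 1.58e-08). Tspan12, which aids norrin signalling through Fzd4 and was named after its values were seen, fell by 0.41 and 0.24 (limma adjusted p = 0.000135 and 0.00467).

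Fzd1 moved in opposite directions with the factors. It stood at 8.37, 8.33 and 8.46 on the control arrays, 7.78, 7.78 and 7.90 on the Pax3 arrays and 8.74, 8.78 and 8.77 on the Pax7 arrays. The Pax3 arrays lay below and the Pax7 arrays above all control arrays. The log2 fold changes were -0.57 ± 0.0504 in Pax3 and 0.38 ± 0.0504 in Pax7 arrays (SE, limma adjusted p = 4.19e-06 and 9.39e-05), and Pax7 arrays were 1.92-fold higher than Pax3 arrays (0.94 ± 0.0504, adjusted p = 4.87e-07).

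Fzd8 and Fzd2 fell further with Pax7. Fzd8 stood at 7.88, 7.92 and 7.92 on the control arrays, 7.52 on all 3 Pax3 arrays after rounding, and 6.92, 7.08 and 6.78 on the Pax7 arrays. It fell by 0.38 in Pax3 and by 0.98 in Pax7 arrays, and differed by -0.60 ± 0.0649 between them (SE, limma adjusted p = 8.44e-05). Fzd2 fell by 0.29 and 0.69, with a difference of -0.40 ± 0.0753 (SE, limma adjusted p = 0.00348). Fzd5 fell by 0.58 in Pax3 and by 0.38 in Pax7 arrays (limma adjusted p = 3.28e-05 and 0.000689), and the difference between them did not pass (0.20, 95% interval 0.05 to 0.35, adjusted p = 0.0709). The co-receptor Lrp6 fell by 0.22 and 0.21 (limma adjusted p = 0.00368 and 0.00361), while Lrp5 passed in no comparison. Fzd3, Fzd6, Fzd7, Fzd9 and Fzd10 also passed in none.

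**Figure D3:**
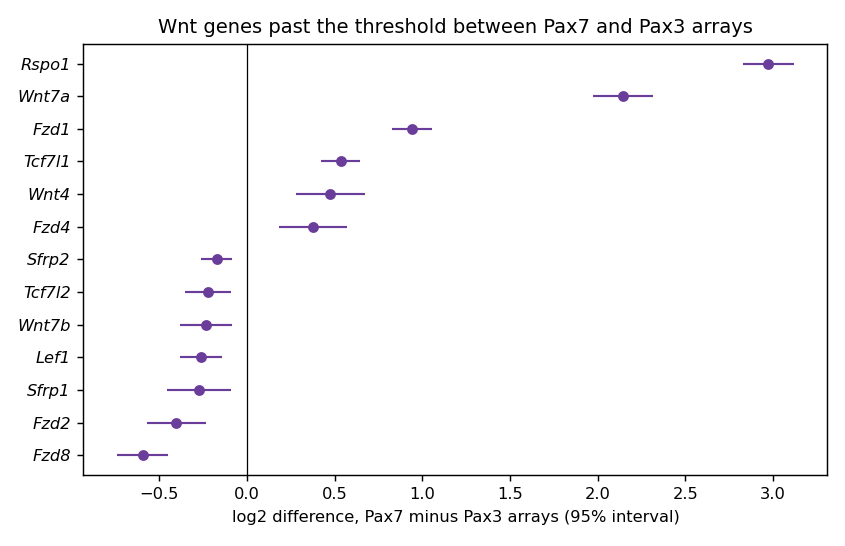
Log2 difference of Pax7 minus Pax3 arrays (x axis, with 95% intervals) for the 13 Wnt genes past the threshold in that comparison. Rspo1 at 2.97 and Wnt7a at 2.14 stand apart from the other 11 genes, which lie between -0.60 and 0.94.

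Among the secreted inhibitors, Sfrp2 carried nearly all of the change. Sfrp2 stood at 10.68, 10.68 and 10.63 on the control arrays, 7.39, 7.45 and 7.39 on the Pax3 arrays and 7.25, 7.24 and 7.22 on the Pax7 arrays. The 3 groups did not overlap, and the gap to control was many times the spread within a group (SD 0.0302, 0.0341 and 0.0190). Sfrp2 fell 9.52-fold in Pax3 (-3.25 ± 0.040, SE, limma adjusted p = 1.12e-12) and 10.7-fold in Pax7 arrays (-3.42 ± 0.040, adjusted p = 9.87e-13). The further difference between Pax7 and Pax3 arrays was -0.17 ± 0.040 (SE, limma adjusted p = 0.0126, and 0.0545 without Pax7 replicate 3). The genes on either side of Sfrp2 on chromosome 3, Gm10710 and Tlr2, did not pass in any comparison. The promoter window of Sfrp2 above held 1 homeodomain core and 1 paired-domain core. Of all windows, 54.9% held the first and 39.8% the second, and binding was not tested.

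The other inhibitors moved little. Sfrp1 stood at 5.93, 5.82 and 6.05 on the control, 6.41, 6.40 and 6.12 on the Pax3 and 6.06, 6.06 and 5.97 on the Pax7 arrays. It was higher in Pax3 than in control arrays by 0.37 ± 0.0819 (SE, limma adjusted p = 0.00356). Its difference between Pax7 and Pax3 arrays (-0.27, adjusted p = 0.0431) was lost without control or Pax3 replicate 1, Pax3 replicate 2 or any 1 of the Pax7 arrays (adjusted p up to 0.162). Dkk3, a divergent Dickkopf protein, was dim and fell by 0.29 and 0.26 (limma adjusted p = 0.00189 and 0.00325). Dkk2 was dim and higher in Pax3 than in control arrays by 0.19 (limma adjusted p = 0.0369). The Dkk2 call was kept only without control replicate 1 or Pax3 replicate 2 and lost without any 1 of the other 7 arrays (adjusted p up to 0.134). Dkk1, Dkk4, Sfrp4 and Sfrp5 passed in no comparison and were dim. Frzb, the Frizzled-related inhibitor outside the symbol rule and named after its values were seen, was also dim and differed from control by 0.18 and 0.10 (limma adjusted p = 0.0311 and 0.215).

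The nuclear factors Lef1 and Tcf7l2 fell with both factors. Lef1, a DNA-binding partner of beta-catenin, stood at 8.69, 8.73 and 8.83 on the control arrays, 7.43, 7.43 and 7.40 on the Pax3 arrays and 7.10, 7.25 and 7.12 on the Pax7 arrays. The 3 groups did not overlap. Its falls were 2.51-fold (-1.33 ± 0.0539, SE, limma adjusted p = 7.26e-09) and 3.01-fold (-1.59 ± 0.0539, adjusted p = 1.1e-09), and the difference of -0.26 between Pax7 and Pax3 arrays passed (adjusted p = 0.00625).

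Tcf7l2, another such partner, stood at 10.05, 10.07 and 10.16 on the control arrays, 8.81, 8.90 and 8.73 on the Pax3 arrays and 8.61, 8.66 and 8.503 on the Pax7 arrays. It fell 2.42-fold and 2.83-fold (-1.28 ± 0.0593 and -1.50 ± 0.0593, SE, limma adjusted p = 2.18e-08 and 3.83e-09). The groups did not overlap, but the difference between Pax7 and Pax3 arrays (-0.22, limma adjusted p = 0.0246) was lost without Pax3 replicate 1 or 2 or Pax7 replicate 1 or 3 (adjusted p up to 0.106).

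Tcf7l1, which often acts as a repressor of Wnt targets, moved in opposite directions. It stood at 9.20, 9.24 and 9.35 on the control arrays, 8.95, 9.01 and 8.96 on the Pax3 arrays and 9.51, 9.55 and 9.47 on the Pax7 arrays. The Pax3 arrays lay below and the Pax7 arrays above the control arrays, by -0.29 ± 0.0493 and 0.25 ± 0.0493 (SE, limma adjusted p = 0.000675 and 0.00171). Pax7 arrays exceeded Pax3 arrays by 0.53 ± 0.0493 (SE, limma adjusted p = 2.51e-05). Axin2, the standard feedback target of beta-catenin, was dim, at 6.19, 6.25 and 6.13 on the control, 6.22, 6.26 and 6.26 on the Pax3 and 6.27, 6.26 and 6.37 on the Pax7 arrays. It passed in no comparison, with 95% intervals of -0.05 to 0.17 for Pax3 and 0.01 to 0.22 for Pax7 against control.

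Of 130 other Wnt pathway genes measured out of 136 listed, 76 passed between Pax3 and control arrays (58.5%, 27 higher and 49 lower) and 80 between Pax7 and control arrays (61.5%, 32 higher and 48 lower). The shares over all genes were 39.6% (19.8% higher, 19.7% lower) and 43.2% (21.6% higher, 21.5% lower). The medians were -0.02 and 0.01. Between Pax7 and Pax3 arrays 35 passed (26.9%, against 16.9% of all genes), which fell to 22 without Pax3 replicate 1 and to 23 without Pax7 replicate 1 or Pax7 replicate 3. The shares of all genes given here and for the lists below were not matched for expression level. When the dimmer genes by mean were set aside, 93 of the 130 genes remained, against 20 of the 47 Wnt genes. Of these 93, 66, 70 and 33 passed in the 3 comparisons. The share of all genes that passed under this filter was not computed, so these counts have no share beside them. Whether the list passed more often than other genes of similar level was not tested.

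Other receptors and co-receptors fell most often, 11 lower and 2 higher of 19 in Pax3 and 11 lower and 3 higher in Pax7 arrays. Of all genes, 19.7% were lower and 19.8% higher in Pax3 arrays, and 21.5% were lower and 21.6% higher in Pax7 arrays. Mcam, a cell adhesion protein that can bind Wnt5a, led them with falls of 2.47 and 2.92 on the log2 scale, followed by Lgr4. The Wnt5a receptor Ror2, named after its values were seen, stood at 6.66, 6.69 and 6.72 in the 3 groups and passed in no comparison. In the list of other secreted or membrane inhibitors, 4 rose and 3 fell of 14 in each comparison with control. Kremen1, a receptor of Dkk proteins, changed by -0.70 and -1.01, Apcdd1 changed by -0.35 and -0.73, and Draxin rose by 0.38 and 0.69. Of the 3 genes for making and releasing Wnts, the transporter Wls rose by 0.20 and 0.22 and the acyltransferase Porcn rose by 0.28 in Pax3 arrays and did not pass in Pax7 arrays (-0.06).

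The cytoplasmic machinery moved by small amounts, with 5 genes higher and 9 lower of 27 in Pax3 and 6 higher and 9 lower in Pax7 arrays. The shares of all genes beside this list and the next were 19.8% higher and 19.7% lower with Pax3, and 21.6% and 21.5% with Pax7. None of the 27 reached 1 log2 unit in either. Dact1, a Dishevelled-binding protein, changed by -0.70 and -0.73, Dvl3, a Dishevelled protein, by -0.54 and -0.68, and Dact3 by -0.35 and -0.45. Nuclear cofactors gave 2 rises and 9 falls of 18 in Pax3 and 3 rises and 10 falls in Pax7 arrays. The corepressor Tle4 fell by 1.02 in Pax3 arrays and did not pass in Pax7 arrays (-0.15), and Pax7 arrays exceeded Pax3 arrays by 0.87 ± 0.118 (SE, limma adjusted p = 0.000416). Tle2 changed by -0.51 and -0.55. Tle1 fell by 0.54 and 0.35 and Chd8 by 0.41 and 0.42. Pygo1 fell by 0.50 in Pax7 arrays and did not pass in Pax3 arrays (0.10).

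In the polarity and calcium branch, 7 genes rose and 10 fell of 29 in Pax3 and 8 rose and 8 fell in Pax7 arrays. For this list and the targets below, the shares of all genes were 19.8% higher and 19.7% lower with Pax3, and 21.6% and 21.5% with Pax7. Prickle2, a core protein of planar cell polarity, stood at 5.41, 5.31 and 5.39 on the control arrays, 6.88 on all 3 Pax3 arrays and 8.67, 8.66 and 8.72 on the Pax7 arrays. It rose 2.85-fold in Pax3 (1.51 ± 0.0423, SE, limma adjusted p = 4.29e-10) and 9.92-fold in Pax7 arrays (3.31 ± 0.0423, adjusted p = 1.53e-12). Camk2d, a calcium-dependent kinase, rose by 1.08 and 0.81, Nfatc4 changed by -1.15 and -1.18, and Prkca fell by 0.60 and 0.95. The commonly used target genes were split, 5 higher and 7 lower of 20 in Pax3 and 7 higher and 7 lower in Pax7 arrays. Fosl1 rose by 1.10 and 1.12, whereas Jun changed by -1.32 and -1.75 and Ccn4 by -0.85 and -1.48.

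**Figure D4:**
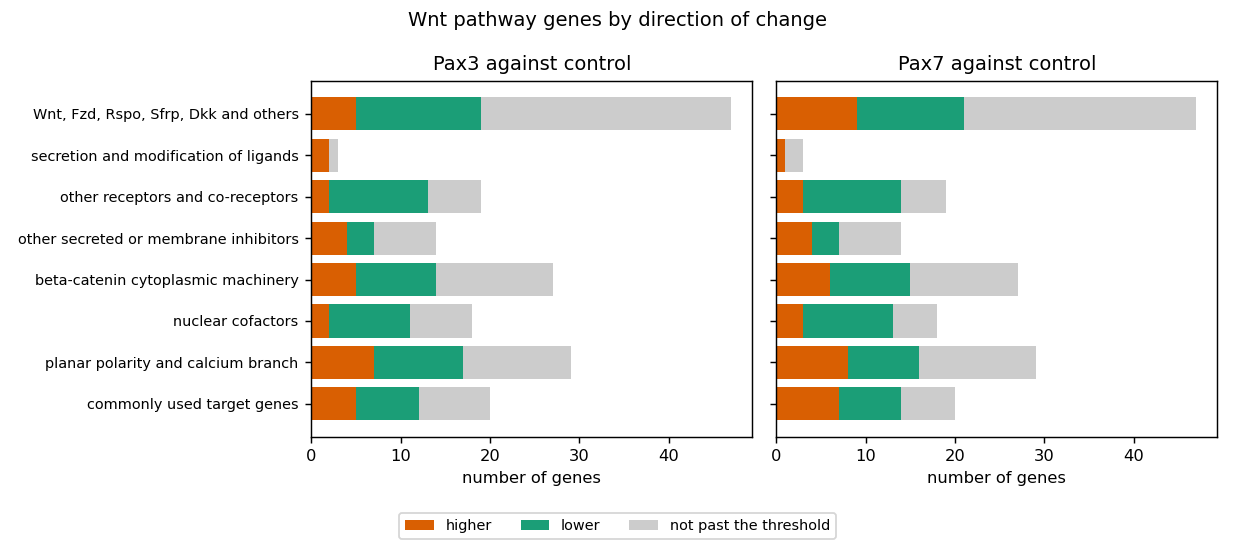
Number of genes (x axis) higher, lower or not past the threshold against control in Pax3 (left) and Pax7 arrays (right), for the 47 Wnt genes and 7 lists of other pathway genes. Lower genes outnumber higher genes 11 to 2 and 11 to 3 among other receptors and co-receptors and 9 to 2 and 10 to 3 among nuclear cofactors. Of all genes, 19.7% were lower and 19.8% higher in Pax3 arrays, and 21.5% were lower and 21.6% higher in Pax7 arrays.

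The genes beside the 9 most changed Wnt genes on their chromosomes were also read, in RefSeq's gene order. Of 18 neighbours, 10 passed between Pax3 and control arrays and 10 between Pax7 and control arrays, beside 39.6% and 43.2% of all genes. Fbln2, which encodes a matrix protein and lies next to Wnt7a on chromosome 6, rose by 2.39 in Pax3 and 1.19 in Pax7 arrays and was lower in Pax7 than in Pax3 arrays (-1.2001, limma adjusted p = 5.25e-08), the opposite order to Wnt7a. Prss23, next to Fzd4 on chromosome 7, rose by 0.99 and 1.198 where Fzd4 fell, while Tmem135, on the other side of Fzd4, also fell (-0.24 and -0.28). Rnf146, next to Rspo3, and Cenpw, on the other side of Rspo3, fell with it, Rnf146 by 0.51 and 0.47 and Cenpw by 0.39 and 0.68. Rpl34, next to Lef1, rose by 1.06 and 0.94 where Lef1 fell. Hadh, on the other side of Lef1, fell in Pax7 arrays (-0.23) and did not pass in Pax3 arrays (-0.07). Habp2, next to Tcf7l2, fell as Tcf7l2 did (-0.23 and -0.16). Vti1a, on the other side of Tcf7l2, rose in Pax3 arrays (0.16) and did not pass in Pax7 arrays (0.08). Gnl2, next to Rspo1, fell where Rspo1 rose (-0.23 and -0.25). Erc2, next to Wnt5a, rose by 0.30 and 0.76, as Wnt5a did. The genes on either side of Wnt9a, Wnt3a and Prss38, did not pass in any comparison.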

How the data were processed

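The authors deposited log2 intensities per probe set for 9 arrays, made by RMA in R 2.10.0, per the submitters' processing notes. RMA subtracts background, quantile-normalises the arrays and summarises probes, so values are relative and a shift common to most genes would be removed. The sources used here give no genome build and no filter on probe sets. Names came from the platform annotation: 20777 of 25668 probe sets had 1 symbol, 232 several and 4659 none.

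Group means were estimated from the 9 arrays together with limma 3.58.1 in R 4.3.3 (residual df 6, prior df 4.37), on the probe set with the highest mean of each of 19661 genes. Benjamini-Hochberg adjusted p under 0.05 over all genes passed. The fit was tested on simulated data with independent normal noise and few shifted genes. Those data held neither technical repeats nor as many changed genes as these arrays, so that test does not bear on the p-values here. The members and lists were chosen with earlier results of these data known. The rule for full description was a change of at least 1 log2 unit past the threshold; from each other list up to 3 passing genes with the largest change against control were named. Same-numbered arrays were not treated as pairs, since the labels name no batch and do not say that shared numbers mark a shared culture or day. The correlation of their deviations from group means ran from -0.026 to 0.225 (9 pairs). Among arrays of the other groups, 4 of the 9 arrays correlated best with one of their own number. Alternatives were a replicate block, 2 groups per fit, a trended robust prior, a filter, averaged probe sets, renormalisation, centring, a treat test and leaving out each array.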

Additional observations from a re-analysis of the deposited data

Results flagged for a closer look

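The Wnt genes and the genes named by rule from the other lists were searched for opposite changes against control with the 2 factors. A gene was flagged only if limma's adjusted p was under 0.05 in every comparison, so a passing difference between the factors was a condition. Fzd1 and Tcf7l1 were flagged, both lower with Pax3 and higher with Pax7. The log2 difference of Pax7 minus Pax3 arrays was 0.94 for Fzd1 (adjusted p = 4.87e-07) and 0.53 for Tcf7l1 (adjusted p = 2.51e-05). All 3 arrays of each factor lay on their own side of the control arrays in both genes. Against a fold change of 1.2, the rises with Pax7 did not pass for Fzd1 (0.38, adjusted p = 0.118) or Tcf7l1 (0.25, adjusted p = 1), nor did the fall of Tcf7l1 with Pax3 (-0.29, adjusted p = 1).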

How the results depend on the processing

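Testing against a fold change of 1.2 with limma's treat lowered the counts most, since it asks for larger changes. The Wnt genes past the threshold were then 10 for Pax3 against control, 12 for Pax7 against control and 5 for Pax7 against Pax3, and the other pathway genes 29, 38 and 11. Leaving out each array in turn gave 18 to 21, 18 to 24 and 9 to 17 Wnt genes and 70 to 77, 75 to 81 and 22 to 35 other pathway genes. Without the lower 50% of genes, which kept 20 Wnt genes, 14, 15 and 12 passed. The shares of all genes under the treat test and under this filter were not computed. The counts under these settings therefore cannot be set beside the shares of all genes given above. With the replicate block, which only shared numbers support, the counts were 19, 21 and 13 for Wnt genes and 76, 80 and 31 for other pathway genes. Of the 53 calls on Wnt genes, 10 were lost under some setting other than treat or the filter, each named beside its value. Differences close to 0 that changed sign when an array was left out were those of Wnt7a for Pax3 against control (-0.0766 to 0.0512), and of Rspo3 (-0.0126 to 0.1416) and Wnt9a (-0.0499 to 0.0799) for Pax7 against Pax3. No called change of a Wnt gene changed sign in any setting run. The number of arrays limits the precision.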

Other observations

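Some values were identical on all 3 arrays of a group as deposited, which makes the SD there 0 and leaves the error to the other groups and the prior. This held for 927 of the 19661 genes (4.71%), of which Wnt5b on the Pax3 arrays was the 1 member of the Wnt group. Rnf43, Prickle2, Apcdd1 and Krt18 on the Pax3 arrays and Cdh1 on the control arrays were among the further cases named in the text. In mouse 4 pairs of Wnt genes are next to each other in RefSeq's gene order. In the pair of Wnt3a and Wnt9a, Wnt9a alone passed against control, and in the pair of Wnt10b and Wnt1, Wnt10b alone did so, in Pax3 arrays. In the pairs of Wnt6 and Wnt10a and of Wnt9b and Wnt3, no gene passed in any comparison. Nfatc2, a calcium-regulated factor of the pathway lists that was named after its values were seen, stood at 6.40, 6.40 and 6.37 on the control, 5.95, 6.16 and 6.04 on the Pax3 and 7.41, 7.35 and 7.24 on the Pax7 arrays. It was lower than control with Pax3 (-0.34, limma adjusted p = 0.000928) and higher with Pax7 (0.95, adjusted p = 2.03e-07).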
